A study of Homo sapiens with 12 samples.

Results

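TAP1, TAP2, TAPBP, TAPBPL, ERAP1, ERAP2, CALR and PDIA3 encode proteins that carry peptides into the endoplasmic reticulum, trim them there and load them onto MHC class I molecules. These 8 genes were taken by name from the 28035 genes of the deposited table of normalized counts. Each matched 1 row, and all 8 passed the minimum mean of 10 normalized counts that left 15990 genes for testing. Their messenger RNA was followed in OVCAR-3, a long-established cell line from a human ovarian adenocarcinoma, labelled as wild-type epithelial cells and collected 6 h after treatment. The 4 groups of 3 libraries each were cells given FC-A (Fusicoccin A) together with IFNα (the Combination), cells given FC-A alone, cells given IFNα (interferon alpha) alone, and cells given DMSO, the solvent control. Fusicoccin A is a fungal diterpene glycoside that stabilises complexes of 14-3-3 proteins with their partners, and IFNα is a type I interferon, a secreted antiviral cytokine. No dose is given in the sources used here, all cells were of 1 line, and nothing states whether the 3 libraries of a group came from separate cultures. The p-values below therefore measure only the spread between these libraries, which may be technical.

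MHC class I molecules show peptides from inside the cell to cytotoxic T cells. The proteasome cuts proteins into peptides, and TAP1 and TAP2 pair into the ATP-driven transporter TAP, which moves the peptides from the cytosol into the endoplasmic reticulum. There the aminopeptidases ERAP1 and ERAP2 shorten peptides from their amino end. Tapasin, the product of TAPBP, bridges TAP to empty class I molecules and favours peptides that bind tightly. Calreticulin (CALR), a lectin chaperone, and ERp57 (PDIA3), a disulfide isomerase linked to tapasin, complete the peptide-loading complex. The tapasin-related protein TAPBPR, the product of TAPBPL, edits peptides outside that complex. Many genes induced by type I interferons carry the interferon-stimulated response element (ISRE), a DNA element built from repeats of GAAA.

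Promoter sequences are shown because the ISRE is a known element of interferon-induced genes, and the members include genes with and without its letters. The sequences come from RefSeq windows of the build GRCh38.p14, each reaching 250 bases before to 50 after an annotated transcript start, and 7 of the 8 members matched, with 11 windows. The ISRE letters searched, on both strands, were GAAA, any 2 bases, then GAAA. They were found in 3.57% of 35116 windows and in at least 1 window of 4.38% of 27305 genes. Of the 7 members with a window, 5 held them: TAP1, TAP2, TAPBP, ERAP1 and ERAP2. TAP1 and TAPBP each held a pair of overlapping matches. In the stretches below, written 5′ to 3′ on the gene's own strand, capitals mark the matched letters.
TAP1, chr6:32853816-32853845 (minus strand): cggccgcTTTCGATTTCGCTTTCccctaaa
TAP2, chr6:32838778-32838807 (minus strand): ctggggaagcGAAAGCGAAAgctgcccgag
TAPBP, chr6:33314076-33314105 (minus strand): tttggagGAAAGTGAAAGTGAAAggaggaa
ERAP1, chr5:96807924-96807953 (minus strand): cgggctccacTTTCACTTTCggtcctgggg
ERAP2, chr5:96876460-96876489 (plus strand): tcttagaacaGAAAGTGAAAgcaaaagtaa
The matches lay at positions -134 to -119 from the start for TAP1, -58 to -49 for TAP2, -20 to -5 for TAPBP, 3 to 12 for ERAP1 and -30 to -21 for ERAP2. In TAP1 and ERAP1 the element ran on the opposite strand to the gene. TAPBP, ERAP2 and ERAP1 shared the core GAAAGTGAAA, which is written in reverse in ERAP1, and TAP1 and TAP2 shared GAAAGCGAAA, in reverse in TAP1. In GENCODE v29 the upstream parts of these 5 windows overlap annotated exons of the same genes. The TAP1 window also held, at -72 to -63, a 10-base sequence bound by NF-kappaB, given in capitals in the next line and found on either strand in 0.191% of all windows.
TAP1, chr6:32853757-32853786 (minus strand): gcctgttcctGGGACTTTCCgagagccccg

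Other letters were searched as well. A window of TAP1 at another start held TTC, any 3 bases, then GAA, the gamma-activated sequence (GAS), at -189 to -181, which 7.66% of all windows held on either strand. TATAAA was found in TAP2, in reverse at -214 to -209, and in CALR at -30 to -25, against 14% of all genes with a window, and CCAAT once each in TAP1 and ERAP1. CALR had the endoplasmic reticulum stress element, searched as CCAAT, any 9 bases, then CCACG, once, in reverse, at -225 to -207, against 0.0769% of all windows. CALR had CCAAT on either strand 4 times, 1 of them inside that element, and 34.6% of all windows held CCAAT at least once. The stretch below is the plus strand up to the base before the first annotated exon, with the stress element and the other CCAAT matches in capitals.
CALR, chr19:12938359-12938577 (plus strand): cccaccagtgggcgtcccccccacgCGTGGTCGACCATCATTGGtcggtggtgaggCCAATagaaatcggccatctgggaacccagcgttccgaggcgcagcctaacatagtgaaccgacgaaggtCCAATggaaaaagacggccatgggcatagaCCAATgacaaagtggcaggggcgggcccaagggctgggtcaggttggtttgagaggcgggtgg
The windows of CALR and TAPBPL did not hold the ISRE letters. A match is a string of letters in these windows, and binding of a factor was not measured.

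The libraries held 31181742 to 39529357 recovered reads each, and the lowest value of any member in any library was 115 normalized counts, for TAPBPL in FC-A. All 10 epithelial markers were present, with summed normalized counts of 368957 to 396861 in the Combination, 318604 to 368694 in FC-A, 346816 to 384441 in IFNα and 342747 to 355047 in DMSO. Of 10 leukocyte markers, 6 had a row, and PTPRC, which defines leukocytes, averaged 7.58 in the Combination, 10.2 in FC-A, 20.1 in IFNα and 10.2 in DMSO. The fibroblast markers DCN and LUM averaged under 1 normalized count in every group. Summed fibroblast markers, nearly all COL1A1, ran 1594 to 2207 in the Combination, 1029 to 1107 in FC-A, 1427 to 1942 in IFNα and 873 to 945 in DMSO. COL1A2, the other fibroblast marker abundant enough to test, was lower in IFNα than in DMSO, at 44.6 and 78.1 (log2 fold change -0.81, adjusted p = 0.00441, limma). Summed leukocyte markers, nearly all NCAM1, ran 3872 to 4462 in the Combination, 5195 to 5369 in FC-A, 4512 to 5309 in IFNα and 5953 to 6220.5 in DMSO. Of 6 endothelial markers 5 had a row, and their sums ran 188 to 242 in the Combination, 260 to 349 in FC-A, 201 to 265 in IFNα and 291 to 373 in DMSO. Of the 3 abundant enough to test, VWF and CDH5 were lower in the Combination than in DMSO and KDR was higher. Their log2 fold changes were -1.25, -0.90 and 0.87 (adjusted p = 0.000298, 0.00195 and 0.00666, limma). The part of these markers in the members' values was not tested. Messenger RNA was measured in bulk, so fewer cells of a kind and less RNA per cell cannot be told apart.

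With IFNα alone, all 8 members were higher than with DMSO in limma's moderated test at an adjusted p under 0.05, where 25.4% of the 15990 genes were called higher. The transporter genes and ERAP2 rose most: TAP1 by 22.8-fold, TAP2 by 5.40-fold and ERAP2 by 3.70-fold. TAPBP, TAPBPL and ERAP1 rose about alike, by 2.55-fold, 2.48-fold and 2.56-fold. CALR and PDIA3 were called at 1.26-fold and 1.12-fold, but these small calls depend on the scaling, as described with their values. At least 2-fold higher and called were 6 of 8 members, against 5.8% of all genes tested. The 3 IFNα libraries lay above the 3 DMSO libraries for 8 of 8 members and for 30.4% of all genes. The median log2 fold change was 1.35 over the 8 members and -0.01 over all genes. Fold changes are on the scale of log2 of the normalized count plus 1.

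TAP1 encodes 1 of the subunits of the transporter and was among the most induced genes of the experiment, at rank 80 of 15990 by log2 fold change. Its normalized counts were 23474, 23552 and 23486 in the Combination libraries, 1109, 992 and 818 in FC-A, 21822, 22369.6 and 21747 in IFNα, and 1008, 987 and 892 in DMSO. Every library with IFNα stood far above every library without it, and the 3 Combination libraries stood above the 3 IFNα libraries. The log2 fold change of IFNα over DMSO was 4.51 (SE 0.08, adjusted p = 4.71e-15, limma). TAP2, which encodes the partner subunit, stood at 3544, 3456 and 3729.6 in the Combination, 669, 549.6 and 521 in FC-A, 3391, 3381 and 3587 in IFNα, and 650.3, 673 and 595 in DMSO. The libraries with IFNα were again apart from those without it, while Combination and IFNα overlapped. Its log2 fold change of IFNα over DMSO was 2.43 (SE 0.08, adjusted p = 6.39e-12, limma).

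Tapasin's gene, TAPBP, had 14008, 13678 and 14081 normalized counts in the Combination, 5126, 5109 and 5105 in FC-A, 12944, 13109 and 13508 in IFNα, and 5182, 5201 and 5143 in DMSO. It was the member with the tightest libraries: the standard error of its log2 fold change was 0.04. Its log2 fold change of IFNα over DMSO was 1.35 (adjusted p = 8.41e-13, limma). TAPBPL, for the peptide editor TAPBPR, was far scarcer, with 363, 334 and 400.4 in the Combination, 125, 115 and 122 in FC-A, 287, 287 and 414 in IFNα, and 139.7, 121 and 131 in DMSO. The IFNα library of replicate 3 stood above the other IFNα libraries and above every Combination library. The log2 fold change of IFNα over DMSO was 1.31 (SE 0.13, adjusted p = 2.00e-06, limma), the widest error of the 8 members.

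Of the trimming enzymes, ERAP1 had 2743, 2659.8 and 2724 normalized counts in the Combination, 1095, 985 and 1007 in FC-A, 2731, 2743 and 2675 in IFNα, and 1079, 1067 and 1037 in DMSO. Combination and IFNα libraries overlapped, as did FC-A and DMSO libraries, with a wide gap between the pairs of groups. Its log2 fold change of IFNα over DMSO was 1.36 (SE 0.05, adjusted p = 2.12e-11, limma). ERAP2, whose enzyme prefers other amino-terminal residues than ERAP1, had 682, 795 and 716 in the Combination, 214, 165 and 176 in FC-A, 703, 707 and 746 in IFNα, and 186, 193 and 202 in DMSO. The same split by IFNα was seen, with a log2 fold change of IFNα over DMSO of 1.89 (SE 0.10, adjusted p = 9.96e-10, limma).

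The chaperones of the loading complex were abundant in every group and moved little. CALR had 28931, 28315 and 27003 normalized counts in the Combination, 25635, 24862 and 22033 in FC-A, 28543, 29359 and 25849.8 in IFNα, and 22589, 22520.4 and 21468 in DMSO. All libraries with IFNα were above all without it, and replicate 3 was the lowest library of each of the 4 groups. PDIA3 had 28506, 27833 and 29186 in the Combination, 25613, 24938 and 23921 in FC-A, 28062, 28923 and 27255 in IFNα, and 25383, 25018 and 25004 in DMSO. It too was higher in each library with IFNα, on this scale. The log2 fold changes of IFNα over DMSO were 0.33 for CALR (SE 0.06, adjusted p = 0.000734, limma) and 0.16 for PDIA3 (SE 0.05, adjusted p = 0.00982).

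The small CALR and PDIA3 calls of IFNα over DMSO were kept under 24 and 23 of 25 alternatives, TMM scaling among them (CALR 0.32, adjusted p = 0.000682, and PDIA3 0.15, adjusted p = 0.0118, limma), and changed under other scalings. After the authors' normalization, the values of a library summed to 36829589 to 37082535 in the Combination, 31691975 to 32728638 in FC-A, 36271212 to 37624779 in IFNα and 32232205 to 32576871 in DMSO, so the sums were higher with IFNα than without it. As a share of that sum, PDIA3 was 0.0772% in the Combination, 0.0770% in FC-A, 0.0759% in IFNα and 0.0775% in DMSO. CALR's share was 0.0760% in the Combination, 0.0750% in FC-A, 0.0754% in IFNα and 0.0684% in DMSO. Scaled to total reads, a check added after the data were seen, the log2 fold change of IFNα over DMSO was 0.14 for CALR (adjusted p = 0.0388, limma) and -0.03 for PDIA3 (adjusted p = 0.495). That scaling also moved the median of all genes to -0.20, and relative to this median CALR was at 0.33 and PDIA3 at 0.16. Under quantile normalization CALR was no longer called, at 0.08 (adjusted p = 0.169, limma), and PDIA3 was called lower, at -0.12 (adjusted p = 0.0172). The median of all genes was then at -0.099, and relative to it CALR was at 0.18 and PDIA3 at -0.02. The other 6 members kept their direction and call under every alternative tried.

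**Figure D1:**
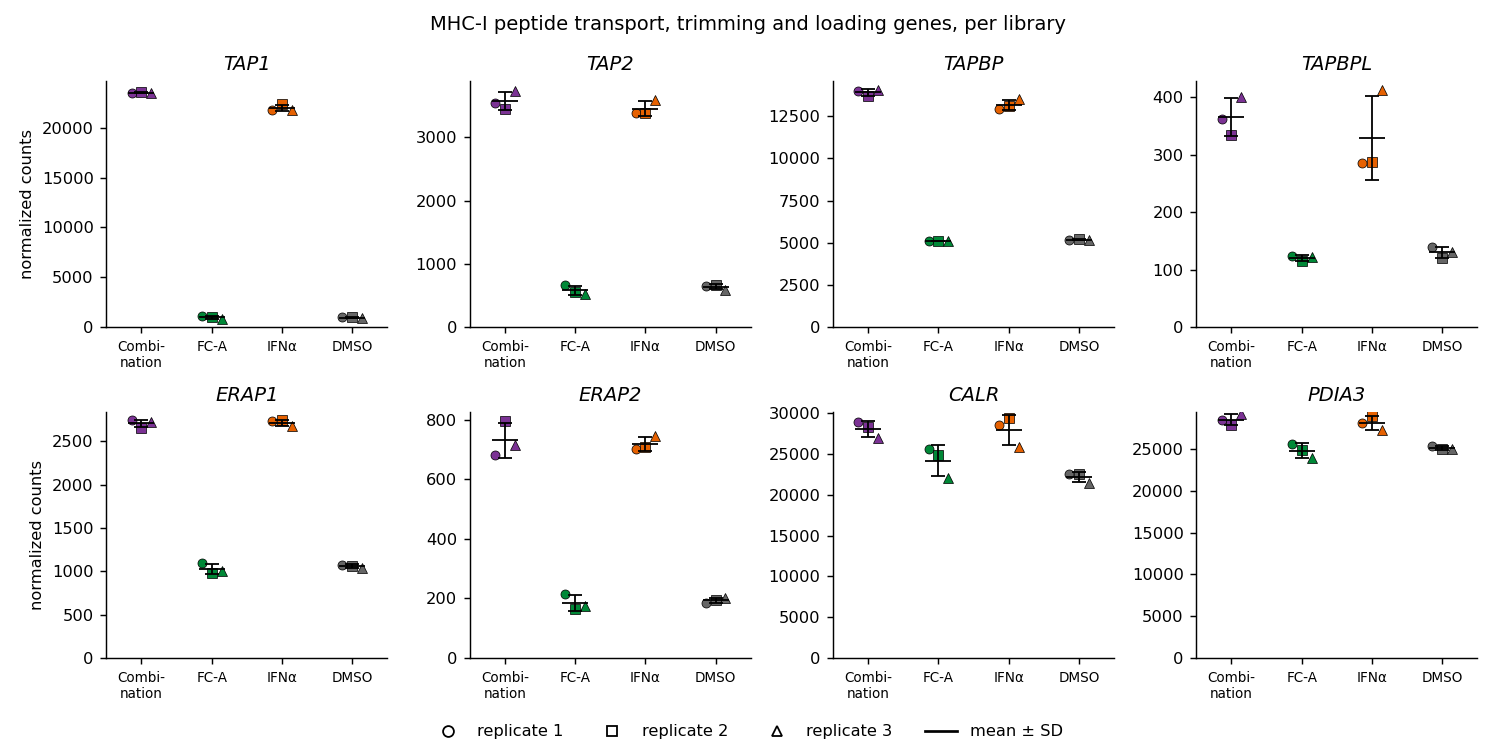
Normalized counts (vertical axes, from 0) of the 8 members in each library, by group, with replicate 1 as circles, 2 as squares and 3 as triangles, and the mean ± SD of 3 libraries as bars. In the panels of TAP1, TAP2, TAPBP, TAPBPL, ERAP1 and ERAP2 the 6 libraries with IFNα lie well above the 6 without it, while in those of CALR and PDIA3 the gap is small and its direction for PDIA3 turns when libraries are scaled to total reads.

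The order of abundance was read per kilobase of annotated exon (GENCODE v29, the union of a gene's exons), since longer transcripts give more reads. In DMSO the levels, in normalized counts per kilobase, were 8177 ± 231 for CALR, 5928 ± 51 for PDIA3, 1024 ± 6 for TAPBP, 200.3 ± 12.8 for TAP1, 134 ± 2.71 for ERAP1, 100.0 ± 6.25 for TAP2, 40.9 ± 3.00 for TAPBPL and 26.1 ± 1.09 for ERAP2 (SD, n = 3). All neighbours in this order were apart by more than their SDs, which do not cover the choice of exon length. Per kilobase, the chaperones thus stood at the top and the aminopeptidase ERAP2 at the bottom. In DMSO counts not divided by length, TAPBPL at 130 stood under ERAP2 at 194, so the order of this pair depends on the lengths used. Other choices of length were not tested. In IFNα the order began with CALR at 10286 ± 677 and PDIA3 at 6623 ± 197, and TAP1 followed at 4574 ± 71, ahead of TAPBP at 2608 ± 57 (SD, n = 3). TAP2 at 540.4 ± 18.1 then stood above ERAP1 at 342 ± 4.55. At the low end, TAPBPL at 103 ± 22.9 and ERAP2 at 96.8 ± 3.23 were not apart beyond their SDs. The Combination gave the order of IFNα, with TAP1 at 4892 ± 9 and TAPBP at 2754 ± 42, and FC-A gave that of DMSO, with TAPBP at 1011 ± 2 and TAP1 at 202 ± 30.5 (SD, n = 3).

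**Figure D2:**
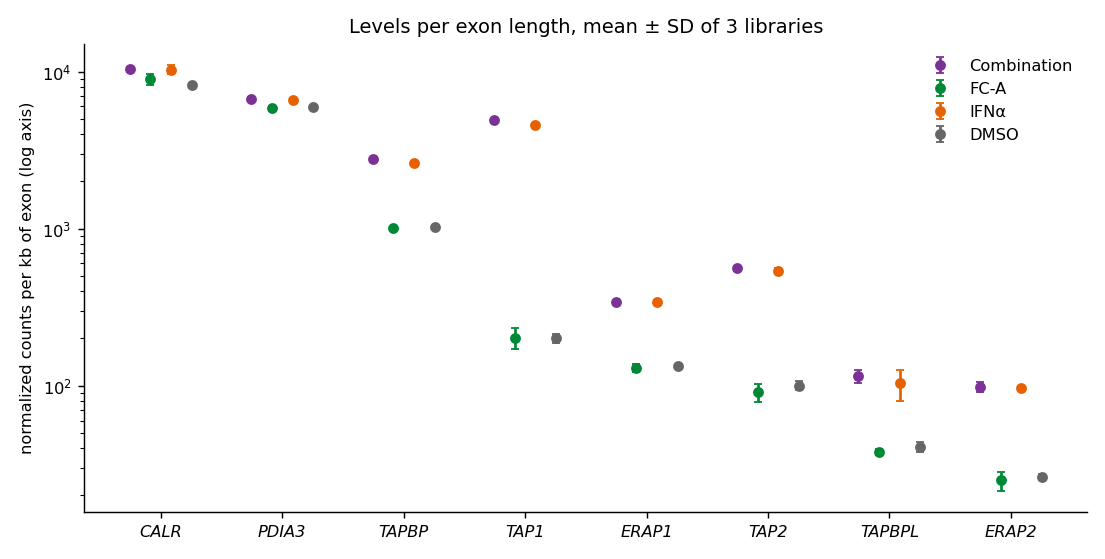
Normalized counts per kilobase of exon (log axis) of the 8 members as mean ± SD of 3 libraries, in the Combination, FC-A, IFNα and DMSO from left to right within each gene. TAP1 lies below TAPBP in FC-A and DMSO (202 and 200.3 for TAP1) and above it in the Combination and IFNα (4892 and 4574).

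Ratios between members were compared within libraries, which removes any scaling of a library as a whole. The normalized count of TAP1 over that of TAP2 was 6.58 ± 0.26 in the Combination, 1.68 ± 0.12 in FC-A, 6.37 ± 0.28 in IFNα and 1.51 ± 0.04 in DMSO (SD, n = 3). The ratio was thus 4.08-fold higher with IFNα than without it, and no library with IFNα overlapped one without it. An exact two-sided permutation test that moved libraries between IFNα and no IFNα within each level of FC-A gave p = 0.005, the smallest its 400 arrangements allow, and 0.00833 adjusted over 5 ratios. The ratio of ERAP1 to ERAP2 was lower with IFNα, at 3.72 ± 0.34 in the Combination, 5.61 ± 0.44 in FC-A, 3.78 ± 0.17 in IFNα and 5.49 ± 0.34 in DMSO (log2 difference -0.56, exact permutation p = 0.005, adjusted 0.00833). The ratio of ERAP1 to TAP1 counts, which is not corrected for their exon lengths, was also lower with IFNα: it was 0.115 ± 0.002 in the Combination, 1.07 ± 0.14 in FC-A, 0.124 ± 0.001 in IFNα and 1.10 ± 0.05 in DMSO (log2 difference -3.18, exact permutation p = 0.005, adjusted 0.00833).

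For the other pairs the same test, which does not pair same-numbered libraries, called no difference by IFNα on all 12 libraries. TAPBP over TAPBPL was 38.2 ± 2.9 in the Combination, 42.4 ± 1.8 in FC-A, 41.1 ± 7.3 in IFNα and 39.9 ± 3.1 in DMSO, a log2 difference of -0.05 (exact permutation p = 0.59, adjusted 0.59). CALR over PDIA3 was 0.986 ± 0.053 in the Combination, 0.973 ± 0.045 in FC-A, 0.994 ± 0.039 in IFNα and 0.883 ± 0.022 in DMSO. Its log2 difference of 0.09 did not pass the threshold (exact permutation p = 0.055, adjusted 0.0688), but it did without Combination replicate 3, at 0.12 (exact permutation, adjusted p = 0.0188). In 11 of 12 omissions of a single library it did not pass (exact permutation, adjusted p up to 0.169). With same-numbered libraries compared in pairs, as a replicate block, the log2 difference of 0.09 did pass (exact permutation, adjusted p = 0.0391). The 3 DMSO libraries, at 0.859 to 0.900, lay under all 9 others, the lowest of which was 0.921 in FC-A.

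**Figure D3:**
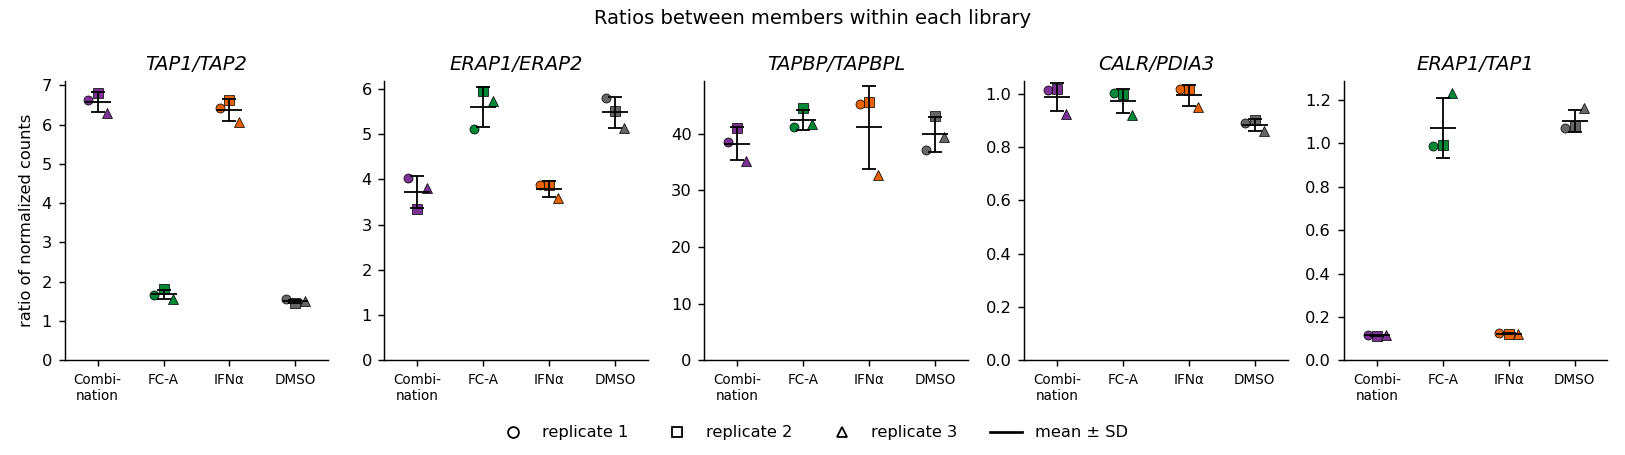
Ratios of normalized counts between members (vertical axes, from 0), 1 point per library with the mean ± SD of 3 libraries, for the Combination, FC-A, IFNα and DMSO. TAP1 over TAP2 is above 6 in the libraries with IFNα and under 2 in those without it, and ERAP1 over ERAP2 and ERAP1 over TAP1 are lower with IFNα.

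Adding FC-A to IFNα gave no member a called change. Against IFNα alone, 0 of 8 members passed in the Combination (limma), where 0.331% of all genes were called in either direction, and 0 of 8 had an unadjusted p under 0.05, against 13.2% of all genes. At such shares 0 of 8 is near the background and does not set the members apart from other genes. edgeR, DESeq2 and the authors' deposited table also called 0 of 8. TAPBP had an unadjusted p of 0.0273 in the authors' deposited table (DESeq2, adjusted 0.297). Under quantile normalization its unadjusted p was 0.0499 (limma, adjusted 0.385). The log2 differences were 0.10 for TAP1 (95% interval -0.08 to 0.28), 0.05 for TAP2, 0.08 for TAPBP (-0.00 to 0.16), 0.17 for TAPBPL (-0.12 to 0.46), -0.00 for ERAP1, 0.02 for ERAP2, 0.01 for CALR and 0.02 for PDIA3. Adjusted p ran 0.396 to 0.979 (limma). TAP1 and TAPBP were the 2 members whose 3 Combination libraries all lay above the 3 IFNα libraries, a separation seen in 9.64% of all genes. The TAPBPL difference was made smaller by 1 library: without IFNα replicate 3 it was 0.34 (adjusted p = 0.0963, limma). Across the members the intervals of the fit to all 12 libraries reached from -0.18 to 0.46, so a change of more than 0.46 on the log2 scale lay outside all of them.

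FC-A alone likewise gave no called change against DMSO. Of the 8 members 0 passed (limma), against 0.3% of all genes in either direction, and 0 of 8 had an unadjusted p under 0.05, against 8.61% of all genes. These counts too are near the background. edgeR, DESeq2 and the authors' deposited table called 0 of 8 as well. CALR had an unadjusted p of 0.0045 under quantile normalization (limma, adjusted 0.238) and of 0.0292 when scaled to total reads (limma, adjusted 0.502). The log2 differences were 0.01 for TAP1, -0.15 for TAP2 (95% interval -0.32 to 0.03), -0.02 for TAPBP, -0.11 for TAPBPL (-0.40 to 0.18), -0.05 for ERAP1, -0.08 for ERAP2, 0.12 for CALR (-0.02 to 0.26) and -0.02 for PDIA3, with adjusted p of 0.634 to 0.992 (limma). TAPBP was the 1 member whose FC-A libraries, 5105 to 5126, all lay under its DMSO libraries, 5143 to 5201, a separation seen in 7.44% of all genes. That gap was 0.988-fold.

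The interaction, the FC-A effect with IFNα minus that without it, was called for 0 of 8 members and for 0% of all genes (limma), with 0 of 8 members and 3.92% of genes at an unadjusted p under 0.05. Here again 0 of 8 is near the background. edgeR and DESeq2 called 0 of 8 members as well. The interaction was 0.28 for TAPBPL (95% interval -0.13 to 0.68), 0.20 for TAP2 (-0.05 to 0.44), 0.10 for TAPBP and ERAP2, 0.09 for TAP1, 0.04 for ERAP1 and PDIA3 and -0.11 for CALR (-0.30 to 0.08), on the log2 scale. The adjusted p was 0.9998 for all 8 (limma).

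The Combination against DMSO, the Combination against FC-A and FC-A against IFNα share libraries with each other and with IFNα against DMSO, so their values are given side by side. Against DMSO, all 8 members were called higher in the Combination, where 26.1% of all genes were: TAP1 by 4.61, TAP2 by 2.48, ERAP2 by 1.91, TAPBPL by 1.48, TAPBP by 1.43, ERAP1 by 1.35, CALR by 0.34 and PDIA3 by 0.18 on the log2 scale, with adjusted p up to 0.00421 (limma). Against FC-A, all 8 were called higher in the Combination, where 26.6% of all genes were, TAP1 by 24.3-fold, TAP2 by 6.19-fold, ERAP2 by 3.95-fold, TAPBPL by 3.01-fold, TAPBP by 2.72-fold, ERAP1 by 2.63-fold, CALR by 1.16-fold and PDIA3 by 1.15-fold, with adjusted p up to 0.0112 (limma). FC-A libraries were lower than IFNα libraries in all 8, where 27% of all genes were called lower, by log2 differences of -4.51 for TAP1 to -0.18 for PDIA3 (adjusted p up to 0.0143, limma). The CALR and PDIA3 calls among these ended or turned under quantile normalization. Scaled to total reads they did so too, except for CALR in the Combination against DMSO, still called at 0.15 (adjusted p = 0.0254, limma). CALR against FC-A was also lost without FC-A replicate 3, at 0.15 (adjusted p = 0.0506, limma). In FC-A against IFNα, CALR was lost without IFNα replicate 1, IFNα replicate 2 or FC-A replicate 3, at adjusted p of 0.0550 to 0.0674, and at 0.0577 in a fit of those groups only (limma).

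**Figure D4:**
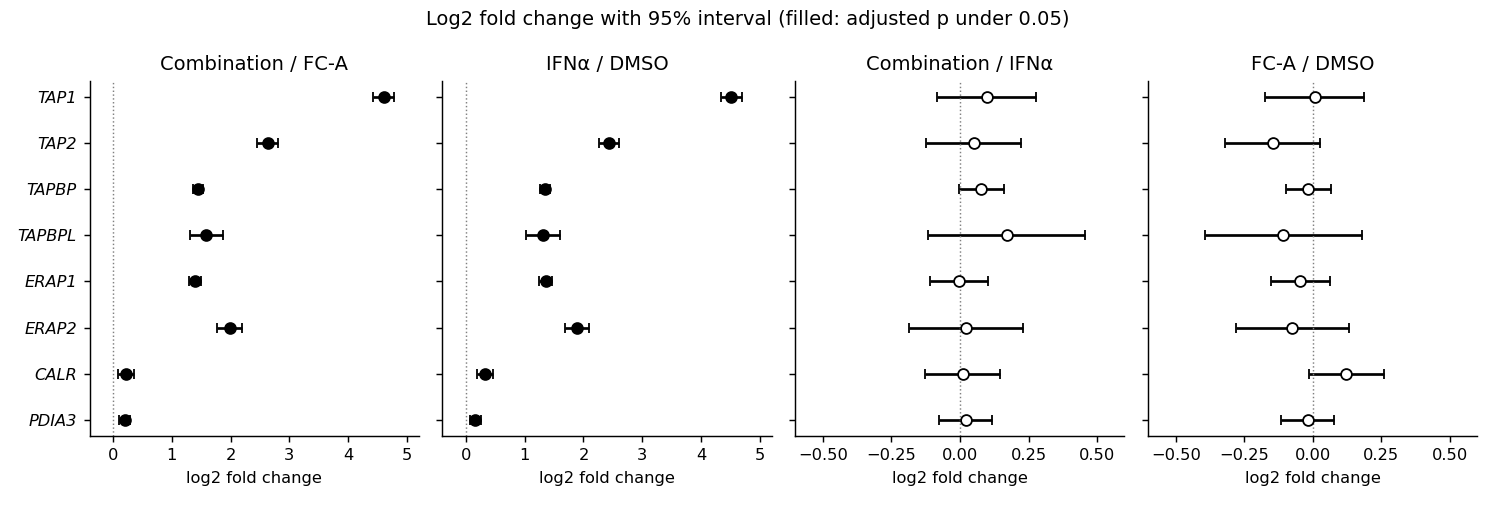
Log2 fold change with its 95% interval for the 8 members in the Combination over FC-A, IFNα over DMSO, the Combination over IFNα and FC-A over DMSO, with filled points for an adjusted p under 0.05 (limma). The axes of the first 2 panels reach 5 and those of the others 0.6. Adding IFNα to DMSO gives values of 0.16 (PDIA3) to 4.51 (TAP1), while adding FC-A gives -0.15 (TAP2) to 0.17 (TAPBPL). The small CALR and PDIA3 calls of the first 2 panels end or turn under quantile normalization. All but that of CALR in IFNα over DMSO also end or turn when scaled to total reads.

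Other genes of the pathway were read in the same fit, in lists chosen by function, beside 25.4% of all tested genes called higher and 21.5% called lower in IFNα over DMSO. Of 16 genes for MHC class I chains and their control, 14 were higher in IFNα than in DMSO, 0 lower and 2 not called, with a median log2 fold change of 2.60. NLRC5, a transactivator of class I genes, averaged 3702 ± 71 in IFNα and 267 ± 19.7 in DMSO (SD, n = 3), a log2 fold change of 3.79. HLA-G, named by the same rule, averaged 29.7 in IFNα and 1.22 in DMSO, close to 0 reads, and reads of HLA genes may be shared with their near-identical copies. Of 10 proteasome genes, 6 were higher, 0 lower and 4 not called (median 0.56). The 3 that encode the immunoproteasome's catalytic subunits led them: PSMB9 averaged 2493 ± 93 in IFNα and 126 ± 24.6 in DMSO, PSMB8 5317 ± 159 and 1095 ± 48, and PSMB10 1515 ± 66 and 328 ± 17.9 in the same groups (SD, n = 3). PSMB5, PSMB6 and PSMB7, the constitutive counterparts, were at -0.02, 0.03 and 0.07 and not called.

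The lists nearest to ERAP1 and ERAP2, to CALR and PDIA3 and to the TAP genes had medians nearer to that of all genes than the median over all 8 members was. CALR and PDIA3 themselves, at 0.33 and 0.16, lay on either side of the median of their own list, 0.21. In the peptidase list the share of genes called higher, 31.2%, was near the 25.4% of all genes, and in the folding list it was 47.1%. Of 16 other peptidases, 5 were higher, 1 lower and 10 not called (median 0.03): LAP3, a leucine aminopeptidase of the cytosol, was at 2.61, LNPEP, an endosomal aminopeptidase of the ERAP family, at 1.04 and ENPEP, a cell-surface aminopeptidase, at -0.62. Of 17 tested genes of folding in the endoplasmic reticulum, 8 were higher, 1 lower and 8 not called (median 0.21). ERP44, a disulfide-linked retention factor, was at 0.59, HSPA5, the chaperone BiP, at 0.47 and CLGN, a calnexin-like chaperone, at -1.27. Calnexin itself (CANX), the membrane-bound relative of CALR, was at 0.13 and not called (adjusted p = 0.051, limma). Of 8 tested ABC transporters of the TAP subfamily, 0 were higher, 1 lower (ABCB5, at -1.14 and 17.2 normalized counts in DMSO) and 7 not called (median 0.00). None of the 67 tested genes of these 5 lists was called in FC-A against DMSO, in the Combination against IFNα or in the interaction, where 0.3%, 0.331% and 0% of all genes were called, so 0 calls among 67 genes are near the background.

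**Figure D5:**
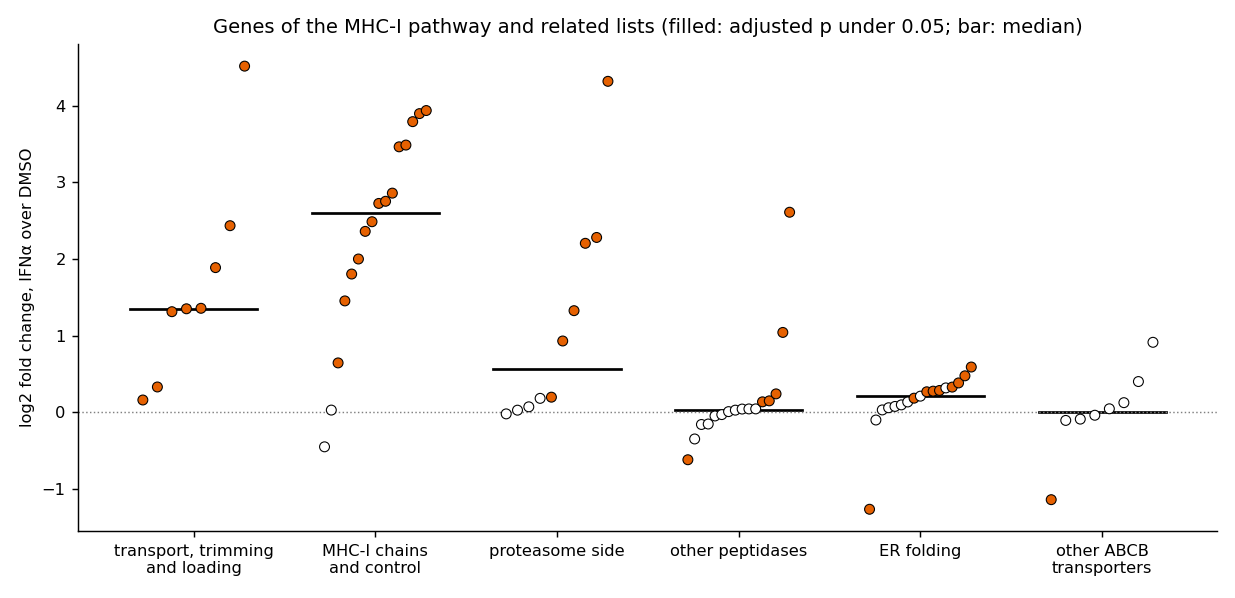
Log2 fold change of IFNα over DMSO for each tested gene of the 8 members and of 5 lists, with filled points for an adjusted p under 0.05 (limma) and a bar at each median. The medians are 1.35 for the members, 2.60 for class I chains and control, 0.56 for the proteasome side, 0.03 for other peptidases, 0.21 for folding in the endoplasmic reticulum and 0.00 for the other transporters; small values, CALR and PDIA3 among them, depend on the scaling.

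Genes whose pattern was most like a member's were found by the root mean square difference over the 12 libraries of the log2 value minus its DMSO mean, among 13030 genes with a mean of at least 50. For TAP1 they were TDRD7 (0.158), IRF7 (0.161) and PSMB9 (0.164). The GENCODE v29 span of PSMB9 overlaps that of TAP1 on chromosome 6, on the opposite strand and with 0 shared exon bases. For TAP2 they were FBXO6 (0.104), IL15RA (0.117) and TMEM62 (0.120). For TAPBP they were LGALS3BP (0.0276), PSME2 (0.0446) and N4BP1 (0.0513), and for TAPBPL RP11-283G6.5 (0.0974), PARP3 (0.106) and SHISA5 (0.107). For ERAP1 they were PSME2 (0.0561), SLFN12 (0.0640) and BLZF1 (0.0672), and for ERAP2 TLE4 (0.0869), PI4K2B (0.105) and ETV5 (0.108). CALR was most like SZRD1 (0.0371), ARHGEF18 (0.0444) and BAIAP2L1 (0.0446), and PDIA3 most like PTPN2 (0.0259), APP (0.0301) and CHMP4C (0.0303). The closeness of the last lists is common: within 0.1 of PDIA3 lay 1437 genes and within 0.1 of CALR 237, against 25 for TAPBP, 20 for ERAP1, 1 each for TAPBPL and ERAP2 and 0 each for TAP1 and TAP2.

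Some members overlap other genes in the GENCODE v29 annotation of GRCh38, and the sources used here do not say whether the authors' counting used the strand. The antisense gene TAPSAR1 shares 456 exon bases with TAP1 and averaged 225 ± 42 in the Combination, 30.3 ± 5.4 in FC-A, 185 ± 9 in IFNα and 39.3 ± 3.7 in DMSO. It thus moved in the direction of TAP1, at a far lower count. CAST, which shares 299 exon bases with ERAP1, was more abundant than ERAP1, at 27895 ± 1256 in the Combination, 22404 ± 3011 in FC-A, 30559 ± 2907 in IFNα and 24492 ± 1364 in DMSO (SD, n = 3). VAMP1 shares 339 exon bases with TAPBPL and ran the other way, at 135 ± 18 in the Combination, 178 ± 22.5 in FC-A, 132 ± 19.2 in IFNα and 163 ± 7.2 in DMSO. ELL3 shares 627 exon bases with PDIA3 and averaged under 15 in every group. How many reads such pairs share was not tested.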

How the data were processed

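Poly(A) RNA of 12 OVCAR-3 libraries was sequenced from 100 ng of total RNA with a stranded kit, per the labels. The deposited signal values are normalized counts per gene, made by the authors. The tools STAR 2.7.3, DESeq2 1.24.0, bcl2fastq 2.20 and FastQC and the build hg19 stand in the submitters' processing notes. Counting program, annotation and strand setting: not given in the sources used here. All values were whole multiples of 1 factor per library (100% within 0.01 of a whole number), so reads could be recovered, 31181742 to 39529357 per library. The authors' deposited tables hold log2 fold changes, p-values and adjusted p-values, per the file headers, and other deposited columns of those tables, such as the test score, were not used for results.

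limma 3.58.1 in R 4.3.3 was fitted to log2 of the normalized count plus 1 for 15990 genes with a mean of at least 10. The 12045 other genes were left out. The fit had 4 group means, a variance trend and Benjamini-Hochberg adjustment over all genes tested in each comparison, with a threshold of 0.05. The median standard error over genes was 0.0924 on the log2 scale. Ratios within libraries were tested by exact permutation. The test was checked on simulated data. Alternatives were other pseudocounts, filters and scalings, a fit of only the groups compared, a replicate block, single libraries left out, edgeR 4.0.16 and DESeq2 1.42.0 on recovered reads, and the authors' deposited tables.

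Groups and replicate numbers came from the labels. Same-numbered libraries correlated positively in all 18 pairs, at 0.0176 to 0.395, and at 0.188 to 0.395 in the pairs of replicate 3. The main fit has no block, so it does not remove a part shared by same-numbered libraries. With a block, 289 genes were called in FC-A over DMSO against 48, and 1009 in the Combination over IFNα against 53. No call of a member changed. The members and lists were chosen with earlier results of these data known. Genes were named by rule: the members, up to 3 called genes per list with the largest change in IFNα over DMSO, and the 3 genes most like each member. A list gene so chosen is not reported here. CANX, the constitutive proteasome genes and the markers PTPRC, NCAM1, DCN, LUM, COL1A1, COL1A2, VWF, CDH5 and KDR were named outside it. Promoter sequences are RefSeq's on GRCh38.p14, and gene spans and exon lengths are GENCODE's, while the files use hg19, so no coordinate of a measured read is given.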

Additional observations from a re-analysis of the deposited data

How the results depend on the processing

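TAP1, TAP2, TAPBP, TAPBPL, ERAP1 and ERAP2 kept their direction where called, and their side of the threshold, in all comparisons under all alternatives. CALR and PDIA3 did not. Under quantile normalization PDIA3 was at -0.12 in IFNα over DMSO, -0.075 in the Combination over DMSO, -0.060 in the Combination over FC-A and 0.11 in FC-A over IFNα, and CALR at -0.049 and 0.079 in the last 2. Scaled to total reads, a setting added after the data were seen, PDIA3 was at -0.031, -0.0068, 0.0024 and 0.022 in the same 4 comparisons, and CALR at 0.021 and -0.0083 in the last 2. That scaling put the median of all genes at -0.21 to 0.20 in these comparisons, quantile normalization put it at -0.11 to 0.094, and the cause was not tested.

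The number of members called in either direction was 7 to 8 for IFNα over DMSO, 6 to 8 for each of the other 3 comparisons with and without IFNα, and 0 for the rest. Under quantile normalization the 7 members called in IFNα over DMSO were 6 higher and 1 lower, PDIA3. The 7 called in FC-A over IFNα were then 6 lower and 1 higher, again PDIA3. Of all genes called, 54.2% were higher in IFNα over DMSO, against 36.6% under quantile and 25.5% under total-read scaling. In the same order the split was 53.9%, 35.9% and 26.6% for the Combination over DMSO, 54.4%, 36.5% and 26.3% for the Combination over FC-A, and 45.6%, 62.2% and 73.9% for FC-A over IFNα.

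All genes called numbered 48 in FC-A over DMSO, with 289 under the replicate block, 26 in the compared groups only, 134 without replicate 3 of all groups, 170 by DESeq2, 155 in the authors' deposited table and 16 to 119 with single libraries left out. For the Combination over IFNα they numbered 53, with 1009, 10, 1187, 239, 231 and 4 to 510 under the same alternatives. For the interaction they numbered 0, with 1 under the block, 1 without replicate 3 and 3 by DESeq2. No member was among the calls of these 3 comparisons.

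The log2 ratio difference of CALR to PDIA3 was 0.094 under the replicate block (exact permutation, adjusted p = 0.0391) and 0.075 to 0.12 with single libraries left out, and was called without Combination replicate 3 (0.12, exact permutation, adjusted p = 0.0188). With single libraries left out it stayed uncalled in 11 of 12 cases (exact permutation, adjusted p up to 0.169). Without replicate 3 of all groups the other ratios were at 2.04, -0.56 and -3.11 for TAP1 to TAP2, ERAP1 to ERAP2 and ERAP1 to TAP1, with exact permutation adjusted p of 0.0694, a design whose smallest unadjusted p is 0.0556. The block changed no call of a member. Of 18 same-numbered pairs of libraries, 10 correlated over 0.1 (all 18 at 0.0176 to 0.395), and 7 of 12 libraries correlated best with their own number.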
